A study of Mus musculus with 40 samples.

Results

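The nuclei described here were sought as the macrophages of the mouse right kidney at 24 h after removal of the left kidney (unilateral nephrectomy, UNx) or a sham operation. They were chosen by a measured value, as the class with at least 50 nuclei and the highest level of Csf1r, the receptor for the macrophage growth factors CSF1 and IL34, in the coarser of the authors' 2 deposited annotations. That choice returned the class named DTL1, with 156 of 16500 nuclei, and the data go against a macrophage identity for it. The annotation does have a class named Macro, but it holds 23 nuclei, 14 in the first sham mouse, 9 in the first UNx mouse and 0 in the others, so it fell under the limit of 50. The nuclei below are therefore called by their annotated class, DTL1, a name that the files do not spell out.

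All animals were male C57BL/6 mice of 8 to 12 weeks, per the labels. Single-nucleus RNA-seq (sorted nuclei, droplet libraries, estimated molecule counts per gene) covered 2 sham and 2 UNx mice at 24 h, with the first mouse of each group in labelled batch 3 and the second in batch 4. Bulk RNA-seq of 36 other right kidneys covered 6 sham and 6 UNx mice at each of 24, 48 and 72 h. All sequenced tissue was a cross-section of the kidney that stayed in place, and the control operation kept both kidneys.

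Macrophages of the kidney lie between the tubules, take up debris and present antigen, and depend on Csf1r signalling to survive. Their usual markers are Csf1r, Adgre1 (the F4/80 antigen) and C1qa (a subunit of the first complement component). The abbreviation DTL is commonly used for the descending thin limb of the loop of Henle, a segment of flat epithelial cells that takes part in concentrating the urine. The urea transporter gene Slc14a2 and the water channel gene Aqp1 are known from different stretches of the descending thin limb, and Slc14a2 also from the inner medullary collecting duct.

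The DTL1 nuclei numbered 47 and 20 in the first and second sham mouse and 61 and 28 in the first and second UNx mouse. They made up 0.880% (95% exact Clopper-Pearson interval 0.647 to 1.17) and 0.757% (0.463 to 1.17) of all nuclei in the sham mice, against 1.18% (0.907 to 1.52) and 0.832% (0.553 to 1.20) in the UNx mice. All 4 intervals overlap, they cover counting error only, and with 2 against 2 mice no two-sided exact permutation p can fall below 0.333, so the share was not tested. The UNx mean exceeded the sham mean by 0.189 percentage points, and by 0.0133 without the first UNx mouse. The summed counts of the class were 261628 and 223328 in the sham mice and 337105 and 214161 in the UNx mice, with median counts per nucleus between 5261 and 7280.

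Batch 4 stood apart within the class. Mitochondrially encoded genes gave 1.03% and 1.70% of the class's counts in the batch 3 mice, sham and UNx, but 6.39% and 10.7% in the batch 4 mice. Over all nuclei of the same mice they gave 0.603% and 0.924% in batch 3 and 5.05% and 7.36% in batch 4, so this was not particular to the class. The 10 genes of the proximal tubule list gave 0.561% and 0.756% in batch 3 and 1.56% and 1.37% in batch 4, close to their share in the other nuclei outside the proximal tubule classes of the same mice (0.414%, 0.614%, 1.43% and 1.49%, in the order sham 1, UNx 1, sham 2, UNx 2). The summed thick limb and distal tubule list was at 447 and 303 CPM (counts per 1000000) in batch 3 and at 4056 and 3428 CPM in batch 4. Only the batch 4 mice had nuclei of the class with over 20000 counts, 2 each, and the largest of them held 28.6% of the class's counts in the second sham mouse and 16.1% in the second UNx mouse. Of 16482 distinct barcodes 18 occurred in more than 1 library, and none of these belonged to a DTL1 nucleus.

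Csf1r chose the class, so its levels are a description. Summed over the 4 mice, the class had 173 Csf1r counts, or 167 CPM. The next classes of 50 or more nuclei were PTS3 with 135 CPM, just outside the choice, PEC with 127 CPM, DTL2 with 97.3 CPM and DTL3-ATL with 35.1 CPM, while the small Macro class reached 432 CPM. By mouse, DTL1 had 237 CPM in sham 1, 80.6 in sham 2, 211 in UNx 1 and 103 in UNx 2, so the 2 batches did not overlap and the 2 treatments did. PTS3 had 150, 114, 167 and 97.2 CPM in the same order, and stood above DTL1 in sham 2 but not in the other 3 mice. The order of these neighbouring classes thus does not hold in every mouse. PTS3 held most of the Csf1r counts of the whole table, 61.4%, and DTL1 held 3.12%.

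**Figure D1:**
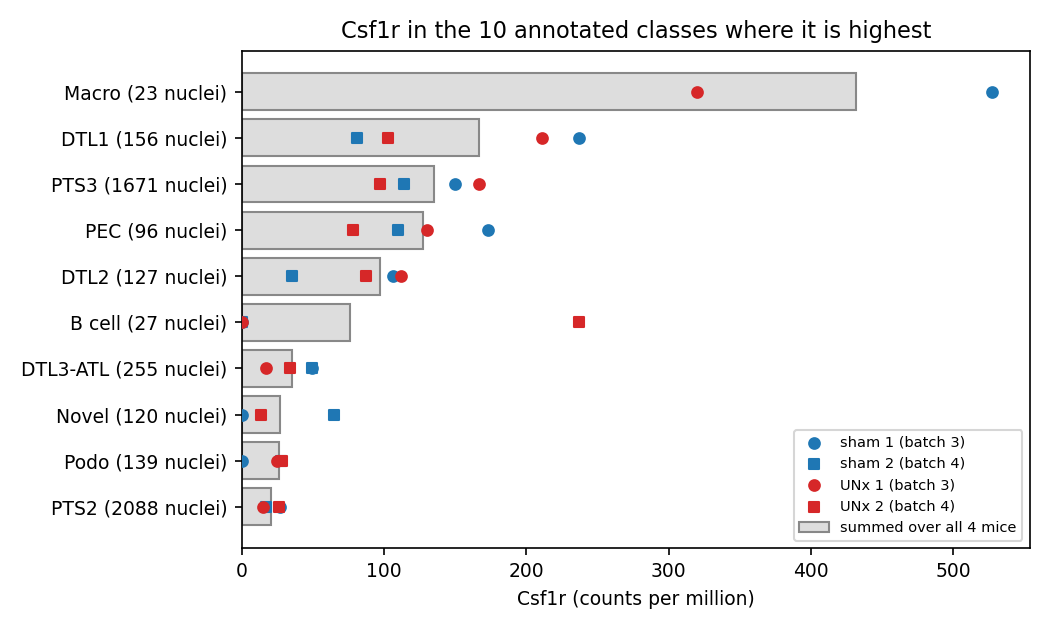
Csf1r in CPM (x axis) in the 10 annotated classes where it was highest; bars are sums over all mice and points are single mice, blue for sham, red for UNx, circles for batch 3 and squares for batch 4. DTL1 (167 CPM) lies next to PTS3 (135 CPM) and below the 23 Macro nuclei (432 CPM), which come from the batch 3 mice only.

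A Csf1r count was present in 88 of the 156 DTL1 nuclei (56.4%, exact interval 48.2 to 64.3), at a median of 5618 counts per nucleus. After each nucleus was thinned to 1500 counts, 17.3% of DTL1 nuclei had one, against 19.2% of PTS3, 17.7% of PEC and 12.6% of DTL2 nuclei. In 2 other classes the thinned share was 0.630% (PTS1, median depth 10874) and 1.26% (EC1, median depth 4109). The share in DTL1 was thus far above that in PTS1 and EC1, and close to that in PTS3 and PEC. By mouse the thinned share was 27.7% in sham 1, 15.0% in sham 2, 14.8% in UNx 1 and 7.14% in UNx 2. Both UNx values lay below both sham values, but sham 2, on 20 nuclei, and UNx 1, on 61, were nearly equal. The shares come from a single random thinning. The unthinned exact intervals of all 4 mice overlapped, and the difference was not tested.

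The other macrophage genes as a sum were not raised in the class as Csf1r was. Of the 24 other members of the macrophage list, 9 had no count in the class: C1qc, Cd68, Fcgr1, Ms4a7, Fcer1g, Laptm5, Cd86, Cd53 and Lst1. A count of 0 allows up to 3 counts in the class for each. Adgre1 had 2.01 counts, C1qa 6, and Ptprc, the leukocyte antigen CD45, 2. Summed, these 24 genes were at 87.1 CPM in DTL1, at 304 CPM in all other nuclei and at 5505 CPM in Macro, and DTL1 ranked last among the 26 classes of 50 or more nuclei. By mouse the sum was 60.0 CPM in sham 1, 190 in sham 2, 39.1 in UNx 1 and 88.9 in UNx 2, so it was highest in the batch 4 mice. Its 2 best counted members were Mertk, an engulfment receptor that is also expressed by podocytes, with 39.3 CPM against 240 in the rest, and Cx3cr1, a chemokine receptor, with 19.3 against 19.1 CPM. Resident macrophage genes were likewise low: Mrc1, Cd163, Lyve1, Timd4, Cbr2 and Trem2 had no count, and the list of 15 summed to 231 CPM against 400 in the rest and 2463 in Macro.

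**Figure D2:**
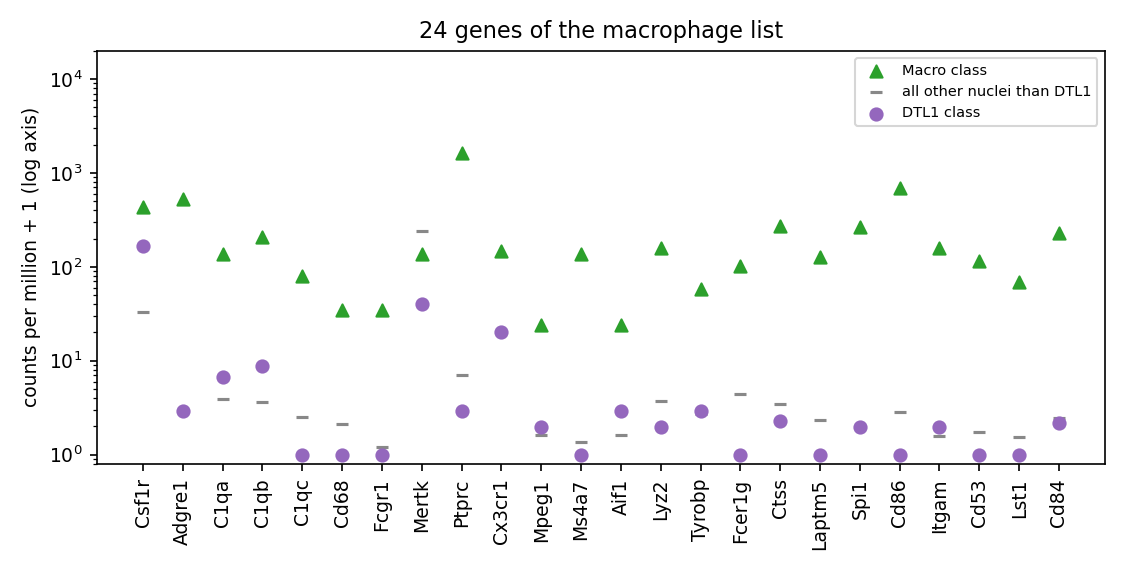
Genes of the macrophage list, 24 of its 25, (x axis) as CPM plus 1 on a log axis, in the Macro class (triangles), the DTL1 class (circles) and all nuclei outside DTL1 (dashes). In DTL1 Csf1r alone stands above 100 CPM, and 9 genes lie at 0.

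Among nuclei of the class with a Csf1r count, 32 of 88 also had a count of another macrophage gene, against 15 of the 68 without Csf1r. In Macro all 17 nuclei with Csf1r had one, and so did all 6 without it. Of the 13 T and NK cell genes 8 had no count, among them Cd3e, Cd3d, Cd3g and Lck. Members with few counts included Cd247 with 4 and Il7r with 1. The list nevertheless summed to 157 CPM in DTL1 against 42.7 in the rest. Of its 5 members with counts, 4 stood above the rest, and 2 were highest in DTL1 among the classes that met the size limit. Most of the sum was Skap1, a signalling adaptor named from T cells. It stood at 146 CPM in DTL1, 116 CPM in DTL2 and 126 CPM in the thick limb class MTAL. The ligand gene Il34 was at 306 CPM in DTL1, 318 in DTL2 and 360 in PEC, so receptor and ligand transcripts were found in the same classes. Csf1, the other ligand, had 10.6 CPM.

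The levels of the genes that lead the class come from the clustered nuclei and carry no test. Of the 20 leading genes (at least 20 counts in the class and 1 in each mouse, ranked by the ratio of the class's CPM to that of all other nuclei), 17 had their highest level in DTL1 among the classes of 50 or more nuclei. Htr4, a serotonin receptor gene, led with 1394 CPM in the class and 3.93 in the rest. Corin, the protease that activates the atrial natriuretic peptide precursor, had 1867 CPM against 7.90, and the next highest class, Podo, had 25.4 CPM. Corin lies on chromosome 5 at 72300025 to 72504473, minus strand, in GRCm38 (GENCODE M21). It had 3223 CPM in sham 1, 860 in sham 2, 1990 in UNx 1 and 1068 in UNx 2, with 59.6% of its counts in the whole table in these 156 nuclei. DTL2 and DTL3-ATL had 4.88 and 3.88 CPM.

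Secreted factors were also among the leading genes. Slit3, a ligand of Robo receptors (chromosome 11, 35121224 to 35708507), had 2318 and 544 CPM in the sham mice and 2624 and 1015 in the UNx mice, against 439 CPM in EC1, the next highest class, 159 in PEC, 12.0 in DTL2 and 12.5 in DTL3-ATL. Angpt2, a ligand of the endothelial receptor Tek (chromosome 8, 18690263 to 18741562), had 2118 and 348 CPM in the sham mice and 771 and 191 in the UNx mice, against 272 CPM in DTL2. Wnt11, a secreted Wnt ligand, had 51.2 CPM against 0.210 in the rest. Jag1, a Notch ligand outside the leading 20, had 374 CPM against 16.3, and its highest level was in DTL1 as well. The receptor Notch2, with 160 CPM, was highest in DTL1 among the classes of 50 or more nuclei and higher still in Macro, with 375 CPM.

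Of the 14 nephron transcription factors of a list drawn up after the class was known, 2 were highest in DTL1, and the list summed to 4768 CPM against 5269 in the rest. Uncx, a homeobox gene among the leading 20, had 230 CPM against 1.52 in the rest, 59.3 in DTL3-ATL, the next highest class, and 1.20 in DTL2. Atoh8 had 69.5 CPM against 1.27. Pax2 and Pax8, which act in kidney development and in adult distal nephron cells, had 1218 and 1135 CPM, against 418 and 336 in the rest. Pax2 had 1118 CPM in DTL2 and 2334 in DTL3-ATL, and Pax8 1324 and 1281, so both were shared with the neighbouring classes. The other leading genes included BC016579, Grik4, Trpm1, Ankrd1, Aox3, Adgrv1, Ifit3b, Prss12, Smad9, Ifit3, Bst1 and Gprc5a, of which Bst1 and Gprc5a were higher in DTL2 and Aox3 in the class Per. The last of the 20, Gprc5a, had a ratio of 27.9, and the gene just outside, Sorcs3, 26.7.

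**Figure D3:**
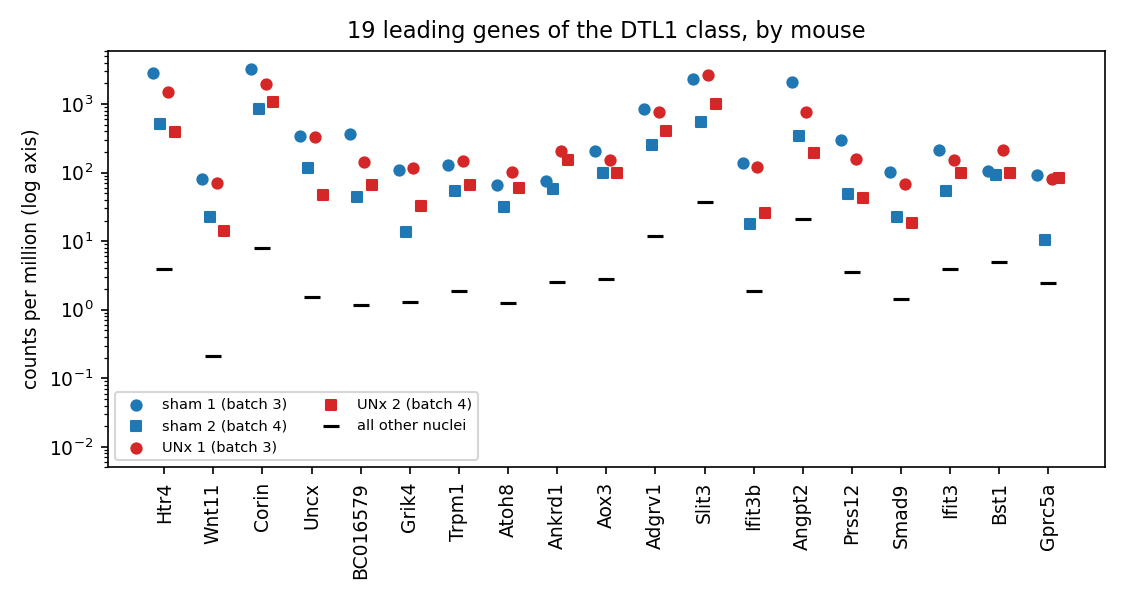
Leading genes of the class, 19 of the 20 (x axis), in CPM on a log axis; points are the DTL1 nuclei of each mouse (blue sham, red UNx, circles batch 3, squares batch 4) and black dashes all other nuclei. In 17 of all 20 genes both batch 4 mice lie below both batch 3 mice, which was not counted over all genes of the class.

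Within each treatment 18 of the 20 leading genes were lower in the batch 4 mouse than in the batch 3 mouse. This was not counted over all genes of the class, so it cannot be read as a trait of the leading genes. The groups sham and UNx did not overlap in 1 of the 20, Ankrd1, whereas they did not overlap in 23.1% of the 5205 genes tested in the class. Batch 4 also had the larger shares of proximal tubule, thick limb and distal tubule, and mitochondrial counts given above. Their part in these levels was not tested.

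Lists of tubule function, drawn up after the class was known, placed DTL1 among and apart from its neighbours. Slc14a2 had 2944 CPM, the second highest level after the class MPC with 11022 CPM, while DTL2 and DTL3-ATL had 68.7 and 37.6 CPM. Aqp1 had 42.4 CPM in DTL1, below DTL2 with 329 and DTL3-ATL with 246. The tight junction gene Tjp1 had 302 CPM and Cldn10 89.5 CPM. Genes of the osmotic response were present: the taurine transporter Slc6a6 at 1010 CPM, the transcription factor Nfat5 at 868, the chaperone Cryab at 317, and Akr1b3, which makes sorbitol, at 146 CPM, far under the 1267 CPM of DTL3-ATL. All 15 genes of the Hippo pathway list, which senses cell shape and contact, were above their level in the rest, and 5 were highest in DTL1, among them Wwc1 (1698 CPM) and Ptpn14 (1423 CPM against 102 in the rest). From the natriuretic peptide list, Npr2, the receptor of the C-type peptide, was highest in DTL1 too, at 39.6 CPM, whereas the peptide genes Nppb and Nppc had no count.

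Ifit3, Ifit3b and Ifit2, interferon-induced genes whose products bind viral RNA, were all highest in DTL1 among the classes of 50 or more nuclei. Ifit2 was higher in Macro, with 114 CPM, and of the 13 genes of the interferon list in the table only Ifit2 and Ifit3 had their highest level in DTL1. Ifit3 had 135 CPM in the class, 41.6 in DTL2, 32.2 in DTL3-ATL and 3.94 in the rest; Ifit2 had 85.9, 49.3, 52.0 and 7.89 CPM. By mouse, Ifit3 had 211 CPM in sham 1, 53.7 in sham 2, 154 in UNx 1 and 98.1 in UNx 2, with the treatments overlapping. Isg15, Ifit1 and Rsad2 had 2, 2 and 3 counts in the class, and Irf7 had 1. Ifit3 and Ifit3b are near-identical neighbours on chromosome 19 (34583531 to 34588731 and 34607970 to 34613401), so the estimated counts may be split between them and each value alone is uncertain.

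The stretches before the starts of Ifit3 and Ifit3b are shown because these are the leading genes whose promoters hold the interferon-stimulated response element, searched as GAAA, any 2 bases and GAAA on both strands. They come from RefSeq promoters on GRCm38.p6, plus strand, chr19:34583343-34583446 and chr19:34607739-34607842. Capitals mark the element, which here lies on the other strand and reads TTTC, 2 bases, TTTC.
Ifit3: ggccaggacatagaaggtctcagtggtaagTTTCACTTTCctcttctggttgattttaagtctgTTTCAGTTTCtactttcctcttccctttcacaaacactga
Ifit3b: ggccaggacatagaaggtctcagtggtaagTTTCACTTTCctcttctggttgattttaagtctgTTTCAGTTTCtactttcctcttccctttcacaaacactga
The printed stretches, 104 bases each, had 0 differences. The element occurred 2 times in each, first at 156 and 188 bases before the annotated starts. Of the 20 leading genes 15 had a promoter of 300 bases in the table and 2 held the element, against 3.44% of all 32851 promoters. A match of letters is a description and does not show a bound site.

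The functional lists drawn up for macrophages all summed lower in DTL1 than in Macro, and stood on both sides of the rest. The list of the colony-stimulating factor axis summed to 504 CPM in DTL1 against 179 in the rest, mostly Il34 and Csf1r, the inflammatory list to 233 against 144, mostly Nfkb1, and the chemokine list to 57.0 against 33.7. Lineage factors summed to 1294 CPM against 1657, complement to 39.7 against 97.1 and scavenger receptors to 290.02 against 788. The best counted members of the lineage factor list, Tcf4 (530 CPM), Mef2a (357), Mitf (105) and Id2 (81.8), are factors shared with other tissues, and Irf5 and Irf4 had no count. Complement genes had few counts, among them C1qb (7.72 CPM), C1qa (5.79) and Cfp (3.96). Antigen presentation was led by Cd74 (21.2 CPM), H2-Aa (13.6), H2-Eb1 (12.6) and H2-Ab1 (8.69), at 73.3 CPM for the list against 77.7 in the rest and 4137 in Macro. The scavenger list was led by Itgav (92.0 CPM), Cd36 (64.6), Gas6 (51.6) and Mertk, all below the rest. Chemokine genes were led by Cx3cr1, Cxcl16 (12.6 CPM), Ccl6 (9.65) and Cxcl2 (8.69), the last with counts in UNx 1 only. Ccl6, Ccr2 and Pf4 had their highest level of the classes of 50 or more nuclei in DTL1, on 10, 2 and 2 counts. Inflammatory genes were led by Nfkb1 (176 CPM), Nfkbia (28.0), Tlr4 (11.6) and Tnf (8.69). Tnf, a cytokine gene, had its 9 counts in the UNx mice only, at 20.8 and 9.34 CPM, too few to be tested. The proliferation list of 13 had at most 9 counts for a member, Pcna, ahead of Mcm2, Ccna2 and Rrm2.

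Among the more general lists, growth factor genes were led by Spp1 (201 CPM), Tgfbr1 (94.5), Hbegf (63.7) and Wnt7b (53.6). Hbegf, an epidermal growth factor receptor ligand, had its highest level of all classes of 50 or more nuclei in DTL1. Lipid and lysosome genes were led by Cd63 (241 CPM), Lpl (153), Ctsl (88.3) and Ctsb (61.0), and glucocorticoid-response genes by Nr3c1 (238 CPM), Zbtb16 (103), Klf9 (65.6) and Per1 (41.5). Interferon genes after the Ifit genes were Ifih1 (38.0 CPM) and Stat2 (37.2).

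The DTL1 nuclei were not uniform. Slc14a2 had a count in 95 nuclei and none in 61, with 76 nuclei at 10 or more counts and 14 at 1 or 2, near the boundary. Corin went with it: 80 nuclei had both, 53 neither, 15 only Slc14a2 and 8 only Corin. This split was made after the values were seen and carries no test. Of the 20 leading genes, 5 were higher in the nuclei with Slc14a2 in all 4 mice (Corin, Angpt2, BC016579 and Prss12 among them). Another 4 were higher in the nuclei without it in all 4 (Slit3, Ankrd1, Bst1, Smad9). Such directions were not counted over all genes of the class, and Smad9 rests on 18 counts with Slc14a2 and 41 without. Prss12, a secreted protease gene, had 209 CPM in the nuclei with Slc14a2 and none in the others. Ankrd1, a known target of the Hippo effector YAP, had 68.1 CPM in the nuclei with Slc14a2 and 274 in those without. Nfat5 (677 against 1300 CPM) and Wwc1 (1448 against 2267) were also higher without Slc14a2 in every mouse. Pooled over mice, Csf1r had 170 CPM with Slc14a2 and 161 without, but its direction differed by batch. In the batch 3 mice it was higher with Slc14a2 (267 against 149 CPM in sham 1, 252 against 168 in UNx 1), and in the batch 4 mice lower (71.6 against 144 in sham 2, 82.2 against 161 in UNx 2).

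Nuclei without a Slc14a2 count made up 27.7% (exact interval 15.6 to 42.6) of the class in sham 1, 25.0% (8.66 to 49.1) in sham 2, 52.5% (39.3 to 65.4) in UNx 1 and 39.3% (21.5 to 59.4) in UNx 2. Both UNx values lay above both sham values. After thinning to 1500 counts the shares were 29.8%, 55%, 63.9% and 50%, and the groups overlapped, with sham 2 above UNx 2. The difference was not tested.

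**Figure D4:**
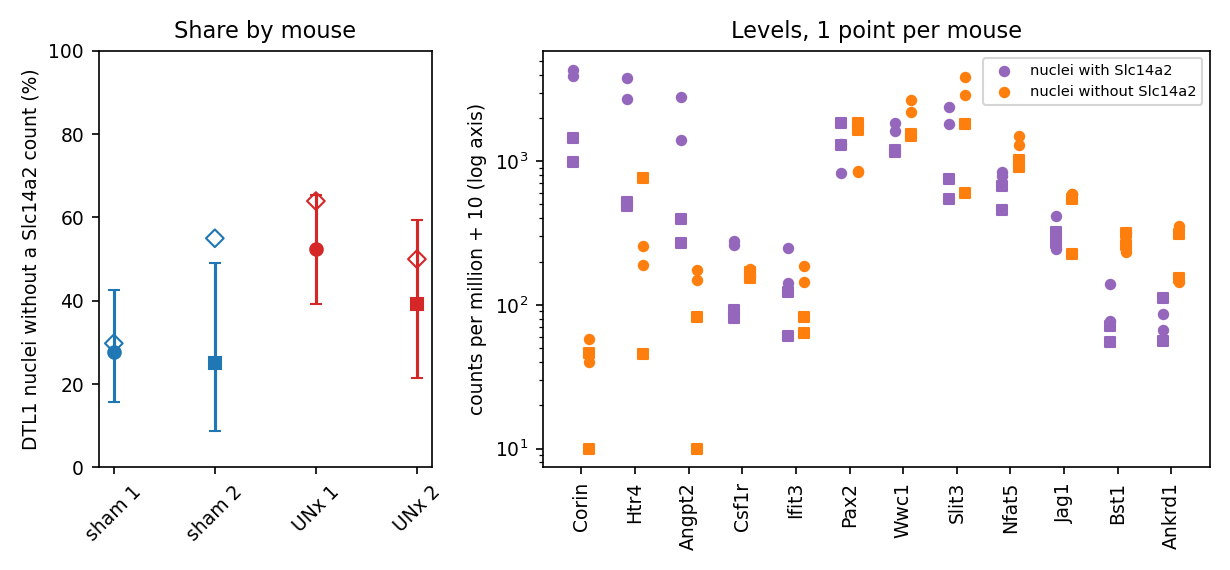
Left, share of DTL1 nuclei without a Slc14a2 count by mouse (filled points with 95% exact intervals; open diamonds after thinning to 1500 counts). Right, CPM plus 10 on a log axis in nuclei with (purple) and without (orange) Slc14a2, 1 point per mouse; Corin separates the 2 kinds of nuclei in every mouse and Csf1r does not.

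Whether UNx changed the class at 24 h was tested over 5205 genes with edgeR's quasi-likelihood test on counts summed per mouse. No gene was called (0%, Benjamini-Hochberg adjusted p under 0.05), 37 had an unadjusted p under 0.05, and DESeq2's Wald test also called 0, with 42 under 0.05. In simulated counts of the same depth and spread, the edgeR test recovered 0.909% of genes changed 2-fold and 11.1% of those changed 4-fold, so most differences of that size were not detectable here. Csf1r was at −0.03 (SE 0.60) on the log2 scale, and the median over all genes tested was near that value. No member of any list was called.

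Pik3r3, a regulatory subunit of PI3 kinase, had the lowest p. It had 53.6 and 40.3 CPM in the sham mice and 166 and 159 in the UNx mice, a log2 difference of 1.77 (SE 0.41). The groups did not overlap, on 14, 9, 56 and 34 counts. Hbegf had 30.6 and 26.9 CPM in the sham mice and 86.1 and 107 in the UNx mice, a log2 difference of 1.73 (SE 0.51), and Ankrd1 had 76.5 and 58.3 against 208 and 154 CPM, 1.41 (SE 0.41). Ankrd1 and Hbegf were both higher in the nuclei without Slc14a2 when these were pooled. That kind of nucleus made up more of the unthinned UNx class. By mouse, Hbegf had 30.8 and 25.6 CPM with Slc14a2 and 29.9 and 36.0 without it in sham. In UNx it had 41.0 and 31.6 CPM with and 132 and 321 without. Ankrd1 was higher in UNx in both kinds. It had 56.5 and 46.0 against 76.1 and 101 CPM with Slc14a2. Without it the values were 134 and 144 against 343 and 303 CPM. The part of the 2 kinds of nuclei in these values was not tested. The other 7 of the 10 lowest p among genes higher in UNx were Rras2, Ccdc88c, Tacc1, Nop58, C1qtnf7, Itga3 and Ptpn12, with log2 differences from 1.08 (Tacc1) to 1.82 (Nop58).

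Slc16a10, a transporter of aromatic amino acids and thyroid hormone, led the genes lower in UNx. It had 291 and 269 CPM in the sham mice and 131 and 84.1 in the UNx mice, a log2 difference of −1.39 (SE 0.39) without overlap. Dixdc1, a Wnt signalling protein, had 76.5 and 71.7 against 23.7 and 9.35 CPM, −2.10 (SE 0.64), the last on 2 counts. The other 8 were Trpm3, Spata13, Gpcpd1, Zfp871, Greb1l, Epb41l3, Pde10a and Frmd4b, with log2 differences from −1.21 (Spata13) to −2.18 (Pde10a). The adjusted p of all 20 named genes in edgeR's test was 1.00 when rounded.

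With the labelled batch as a block, edgeR called 23 of the 5205 genes (0.442%), 5 higher (0.0961%) and 18 lower (0.346%) in UNx. Pik3r3 and Slc16a10 were among them, both with an adjusted p of 0.0252. Lhfp, a tetraspan membrane protein gene, had the lowest adjusted p, 3.9e-06, with 0 and 71.7 CPM in the sham mice and 232 and 192 in the UNx mice. The others higher in UNx were Cp, Akap12 and Nudt19. Among those lower were Angpt2 (log2 difference −1.22), Nox4, Ranbp3l, Bcat1 and Pde1c, and proximal tubule genes such as Slc5a12, Keg1, Dab2, Slc13a1 and Gatm. Keg1 had 91.8 CPM in sham 1, 1873 in sham 2, 104 in UNx 1 and 201 in UNx 2. Dab2, Slc5a12 and Slc13a1 were likewise high in sham 2 alone. In that mouse 1 nucleus held 28.6% of the counts. The proximal list was at 1.56% there, against 1.37% in UNx 2. Without the 4 nuclei of over 20000 counts, a choice made after seeing the data, the blocked fit called 0 of 4535 genes, with 247 at an unadjusted p under 0.05. Pik3r3 and Slc16a10 kept log2 differences of 1.76 and −1.38. Keg1 went from −1.83 to −1.58, Dab2 from −1.81 to −1.88, Slc5a12 from −2.40 to −1.48 and Slc13a1 from −1.47 to −1.26. In all nuclei outside DTL1, Keg1 had 4267 and 3179 CPM in the sham mice and 576 and 677 in the UNx mice. The part of the large nuclei in these calls was not tested.

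**Figure D5:**
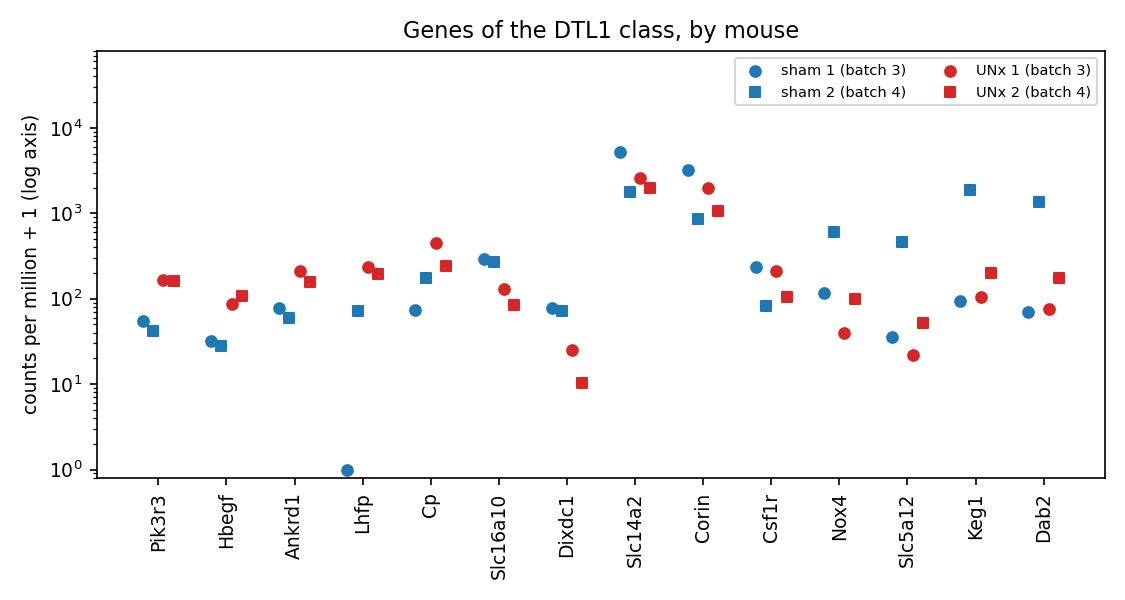
Genes of the DTL1 class (x axis) as CPM plus 1 on a log axis, 1 point per mouse (blue sham, red UNx, circles batch 3, squares batch 4). Pik3r3, Hbegf, Ankrd1, Slc16a10 and Dixdc1 do not overlap between sham and UNx, while Keg1, Dab2 and Slc5a12 are high in the second sham mouse alone.

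The UNx effect in DTL1 minus that in all other nuclei of the same mice was tested in a single edgeR fit with the mouse as a block. It called 0 of the 5205 genes (0%), with 102 at an unadjusted p under 0.05. Nothing in the class's response was therefore shown to differ from that of the other nuclei. Csf1r's response in the class had a standard error of 0.60 on the log2 scale; a moderate change would not have been detectable at this depth.

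Bulk RNA-seq gave the same genes in kidneys that the choice of the class did not use. In bulk, fewer cells of a type and less RNA per cell cannot be told apart. At 24 h edgeR called 0 of the 16 leading genes tested, against 27.3% of 14104 genes, and 0 of 15 at 72 h, against 1.71% of 14556 (1.21% higher, 0.502% lower). At both times 0 of them had an unadjusted p under 0.05 in edgeR, and DESeq2 called 0, with 1 under 0.05. At 48 h it called 2 of 13, against 32.9% of 14280 genes, and both were lower in UNx. Corin fell by 1.52 (SE 0.46, adjusted p 0.0222) on the log2 scale; the sham libraries had 1.89, 6.33 and 11.3 CPM (lowest, median, highest) and the UNx libraries 0.220, 2.55 and 3.62. Ifit3b fell by 0.51 (SE 0.18, adjusted p 0.0378), with 5.61, 7.10 and 8.96 CPM in sham and 3.22, 5.06 and 6.59 in UNx. The groups overlapped in both genes. Without sham replicate 2 neither passed edgeR's test (Corin −1.27, adjusted p 0.0562; Ifit3b −0.43, adjusted p 0.0863), and Ifit3b was lost with any of 7 of the 12 libraries left out. The share of mitochondrial counts was 14.0 to 15.5% in the sham libraries of 48 h and 25.8 to 26.4% in 5 UNx libraries, while UNx replicate 6 stood apart at 15.2%. Without UNx replicate 6 both were called (Corin −1.60, adjusted p 0.0244; Ifit3b −0.55, adjusted p 0.0303), and that share and UNx then cannot be told apart. With the share as a covariate, a fit that rests on this library, Corin was at −1.19 (edgeR adjusted p 0.608) and Ifit3b at −0.25 (0.773).

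The macrophage list in bulk cannot be read as macrophages alone, nor as DTL1. Without Csf1r it summed to 304 CPM in all nuclei outside DTL1 and to 1195 CPM in Podo, and PTS3 held 61.4% of the Csf1r counts of the nuclei. Csf1r had 25.1, 33.7 and 40.6 CPM in sham and 18.6, 35.5 and 40.4 in UNx at 24 h, a log2 difference of 0.01 (SE 0.15). At 48 h it had 44.9, 51.7 and 60.4 against 33.8, 45.7 and 47.6 CPM, −0.25 (SE 0.10, edgeR adjusted p 0.0591). At 72 h the difference was −0.17 (SE 0.11). The groups overlapped at all 3 times.

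Of the list edgeR called 0 of 23 members at 24 h and 0 of 25 at 72 h, against 27.3% and 1.71% of all genes tested. At an unadjusted p under 0.05 in edgeR were 2 and 4 members, against 5523 of 14104 and 2515 of 14556 genes. It called 2 of 24 at 48 h, a smaller share than the 32.9% of 14280 genes called over all. Ptprc fell by 0.64 (SE 0.15, adjusted p 0.00677), from 6.56, 8.95 and 11.0 CPM in sham to 4.42, 5.55 and 7.13 in UNx. Cd68, a lysosomal glycoprotein of phagocytes, rose by 0.69 (SE 0.24, adjusted p 0.0383), from 2.29, 3.04 and 3.50 to 2.82, 4.42 and 7.62 CPM. The groups overlapped in both. With the mitochondrial covariate, which separates from UNx through replicate 6 alone, Ptprc was at −0.31 (edgeR adjusted p 0.657) and Cd68 at −0.12 (0.917). Without UNx replicate 6 they were at −0.70 (0.00277) and 0.83 (0.00949). The list's median log2 difference was 0.03, −0.20 and −0.18 at 24, 48 and 72 h, beside 0.0054, −0.040 and −0.0042 over all genes tested. At 72 h 24 of 25 members had a negative sign, with 0 of them called. Signs were not counted over all genes, and this count of signs was not tested.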

How the data were processed

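Right kidneys of sham and UNx mice were profiled by single-nucleus RNA-seq (4 mice) and bulk RNA-seq (36 libraries, 14.9 to 24.1 M counts). The authors deposited estimated counts per gene, not normalized, for both: for the nuclei with alevin and Seurat on mm10 and for bulk with Salmon 1.5.0, R 4.10 and FastQC 0.11.8 on GRCm39, per the submitters' processing notes; their settings were not found in these sources. Of the nucleus values above 0, 13.9% were not whole; for testing, estimated counts were made whole by rounding, in the nuclei after summing per mouse. The lowest nucleus total was 1755, so nuclei had been filtered before deposit; no doublet caller was run, and an alternative left out the nuclei with most counts. Classes are those of the authors' annotation (30 in the coarser form).

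Counts were summed per mouse, the replicate, and tested with edgeR 4.0.16 (quasi-likelihood, filterByExpr, TMM, two-sided, Benjamini-Hochberg at 0.05) in R 4.3.3; DESeq2 1.42.0 was an alternative. SEs are the log2 difference divided by the square root of F. CPM in bulk uses TMM library sizes. Nothing says more of the mice than that they are separate samples. The labels put same-numbered nucleus mice in 1 batch, which pairs them (their deviations from group means correlated at r = 0.62); bulk numbers share no such label. Tests were checked on simulated data. The chi-square per gene of replicate pairs was at least 5.33 over 90 bulk pairs and 241 in the nuclei, so each library counts as its own sample.

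The members and lists were chosen with earlier results of these data known. The macrophage and functional lists were written for a macrophage class, and the 8 tubule lists were added once the class was seen to be DTL1. Named genes are the macrophage list, the 20 leading genes, the 10 lowest p in each direction, up to 4 best counted members of each macrophage functional list, and called list members; predicted (Gm, Rik) and mitochondrial genes were passed over. Other genes, including those of the tubule lists and of the blocked fit, were named after their values were seen. Bulk gene IDs were named through the reference table (28340 of 28467). A few genes of these lists are not reported here.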

Additional observations from a re-analysis of the deposited data

Results flagged for a closer look

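In the bulk groups of 6 libraries, 26 gene and group combinations named in the text were examined for a library far from the other 5, which chance gives in about 1 of 20 groups. There were 3. Csf1r was at 18.6 CPM in UNx replicate 6 at 24 h, where the next lowest library had 32.8 CPM and the median was 35.5. C1qa was at 19.2 CPM in UNx replicate 4 at 24 h, where the next highest had 13.5, and at 14.5 CPM in UNx replicate 1 at 72 h, where the next highest had 9.79.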

How the results depend on the processing

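In the DTL1 nuclei the count of 0 genes called for UNx against sham became 6 without a filter on low counts (Keg1, Slc7a7, Slc5a12, Dab2, Lhfp and Nmrk1), 23 with the replicate block, and 0 to 20 when 1 mouse was left out: 20 without UNx 2, among them Slc12a1, Slc12a3, Egf and Slc5a12, all lower in UNx, and 1, Lhfp, without sham 2. The other settings that gave a value, including the replicate block without nuclei of over 20000 counts, gave 0. The cause of these changes was not tested. Csf1r, near 0 throughout, changed sign without the filter (0.015), with the block (0.0015) and with the block and without those nuclei (0.0082), and ran from −0.54 to 0.96 with 1 mouse left out. The 20 named genes kept their sign in every setting that gave a value. Where a group kept 1 mouse, that mouse was assumed to vary like the other group.

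The difference of effects called 1 gene, Lhfp, among genes passing the filter over all 8 sums, and 0 in the other settings. The setting with the nuclei at or below the class median of the proximal tubule share was not run for either test, since it left 1 nucleus in sham 2 and 0 in UNx 2. The difference in the share of the class ran from 0.0133 to 0.366 percentage points with 1 mouse left out.

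In bulk the macrophage list had 1 call at 24 h by DESeq2 and 0 to 1 with 1 library left out, with 1 call without sham 1 or without UNx 6. Csf1r there was −0.0069 with the replicate block, −0.48 with the mitochondrial covariate and −0.056 to 0.13 with 1 library left out. At 48 h the 2 calls became 4 by DESeq2 (Ptprc, Cd68, Adgre1, Fcer1g), 1 without the filter (Ptprc), 6 with the replicate block, 0 with the mitochondrial covariate, where Cd68 was −0.12, and 1 to 6 with 1 library left out: 6 without sham 1, 5 without sham 6 and 1, Ptprc, without sham 3, sham 5, UNx 4 or UNx 5. Ptprc was called with any single library left out, and Cd68 was not in 7 of the 12 cases. Csf1r, not called in the main fit at 48 h, was called lower in edgeR with the replicate block (−0.25, adjusted p 0.0390). It was also called without sham 1 (−0.29, adjusted p 0.0412), and with the mitochondrial covariate it was at −0.14 and not called. At 72 h DESeq2 called 1 (Lyz2), as did edgeR without sham 1, in a range of 0 to 1. Of the leading genes, the 2 calls at 48 h became 0 with the replicate block, 0 with the mitochondrial covariate and 0 to 5 with 1 library left out: 5 without sham 4, 4 without UNx 2 or UNx 3, 1 without sham 1, 5 or 6 or UNx 1 or 5 (Corin), and 0 without sham 2. No leading gene was called at 24 or 72 h in any of these settings, which for the leading genes were chosen after seeing the data. Bulk replicate numbers carry no pairing in the labels, and the correlations of same-numbered libraries ran from −0.37 to 0.15.

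Depth limits the nuclei: the class had 20 to 61 nuclei a mouse, and counting intervals do not cover the spread between mice.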
